A study of Mus musculus with 6 samples.

Results

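The mitochondrial translation factors described here are 10 nuclear genes, Tsfm, Tufm, Gfm1, Gfm2, Mtif2, Mtif3, Mtrf1, Mtrf1l, Mrrf and Mtfmt, out of 48967 genes with exonic parts in the count data. Their members were chosen by role, except that Tsfm was selected on measured values of the comparison below, where it was noted for its rise in delipidated embryos. Its difference between the groups is therefore given as a description without a test. All 10 factors were listed under an identifier of their own and were among the 16020 genes that passed the filter on low counts.

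RNA was sequenced from 6 libraries of mouse 2-cell embryos, 3 control and 3 delipidated, to compare embryos after the removal of lipid droplets at the zygote stage with embryos that kept them. All were wt embryos of the strain F1 (C57Bl/10 X CBA/H), cultured without fatty acids in KSOM from 0.5 dpc to 2.0 dpc and labelled day 2. In the delipidated group, zygotes were treated with cytochalasin B and centrifuged, and the lipid droplets were drawn out through an opening made in the zona pellucida with a laser. Each library was a pool of 3 embryos. The embryos of all females were mixed before they were allocated to the groups, so the libraries of a group are separate tubes of embryos and not separate litters, and the p values measure the spread between these tubes. The sources used here do not say whether the control zygotes of these libraries were also centrifuged or exposed to cytochalasin B, and the loss of lipid and the handling cannot be told apart.

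Exons were divided into exonic parts that do not overlap, and the values are the counts of these parts added up per gene. A read that spans several parts is counted in each of them, so the sums exceed the number of reads, and the largest count of a single part is the lower limit for that number. The sums over all genes came to 12164963, 16165958 and 12980787 for control and 20059460, 16332103 and 14683741 for delipidated embryos. Delipidated replicate 1 had the largest total and the fewest genes with a count, 17091, whereas the other libraries had between 19408 and 22855. Levels are in CPM, the counts scaled to the library total and its TMM factor. A count of 0 was taken to allow up to 3 counts, which covers counting error alone.

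Mitochondria translate the messages of their own genome with ribosomes and factors that resemble those of bacteria, and all of these factors are made in the cytosol from nuclear genes and imported. Initiation needs a formylated methionyl-tRNA and initiation factors, elongation needs a factor that delivers aminoacyl-tRNA and a translocase, and termination and recycling release the chain and split the ribosome. The early mouse embryo inherits its mitochondria and much of its RNA from the oocyte, and at the 2-cell stage maternal messages decay while the embryonic genome is activated.

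Among the 9 factors other than Tsfm, 7 had a positive and 2 a negative log2 fold change in delipidated embryos, with a median of 0.22, while the median over all genes tested was 0.00. With edgeR's quasi-likelihood test 0 of the 9 passed an adjusted p under 0.05 with a log2 fold change beyond 1, as did 0% of all genes. An unadjusted p under 0.05 was found for 0 of the 9, against 1.15% of all genes with such a p and a higher level and 1.74% with a lower level in delipidated embryos. DESeq2 and limma-voom also called 0 of the 9, while over all 16020 genes DESeq2 called 3 higher and 9 lower and limma-voom called 0. The adjusted p of each of the 9 was 1.00 with edgeR. The 3 delipidated libraries lay above all control libraries for 1 of the 10 factors, Tsfm, and below them for 0, while the groups did not overlap for 3.81% of all genes in the upward and for 5.05% in the downward direction. Nothing is read from that count for Tsfm, since this contrast chose it.

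**Figure D1:**
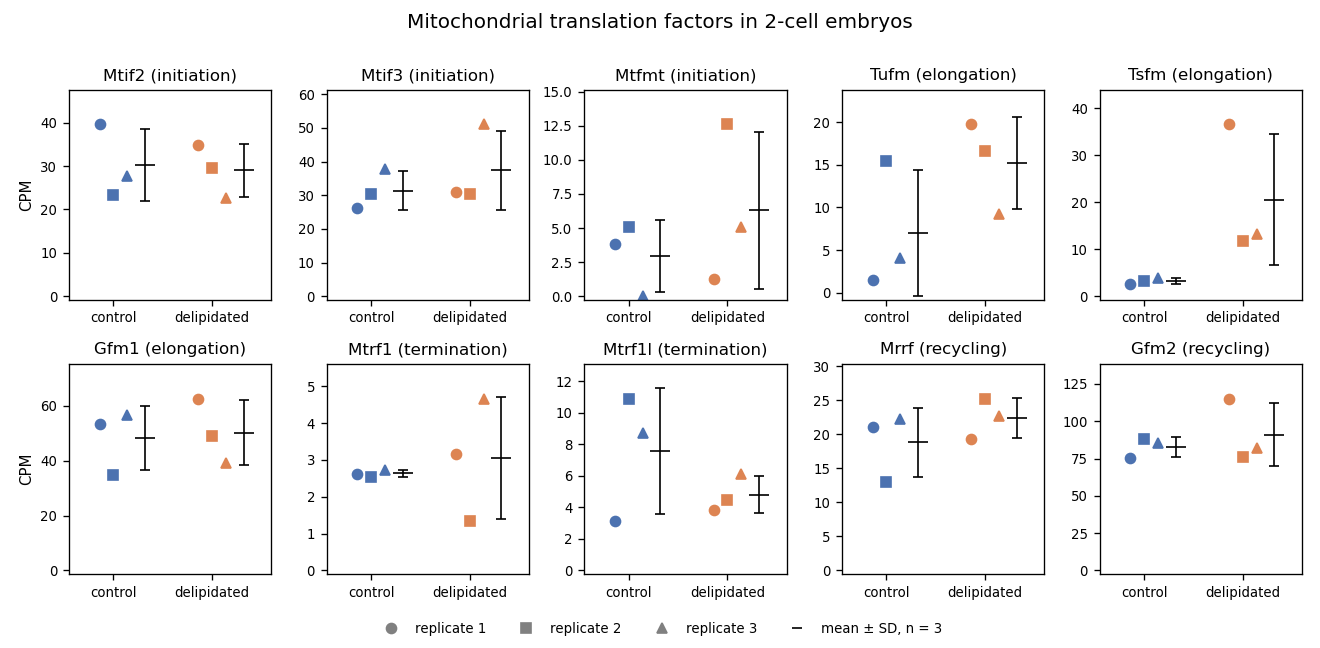
Levels of the 10 factors in CPM (vertical axis, linear, 1 panel per gene) in each control and delipidated library, with the mean and SD over 3 libraries at the right of each group. The points of the groups overlap in every panel apart from Tsfm, where delipidated embryos were between 11.8 and 36.5 CPM and control embryos between 2.53 and 3.80 CPM.

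Initiation was represented by Mtif2, Mtif3 and Mtfmt. Mtif2, which places the initiator tRNA on the small ribosomal subunit, lies at chr11:29526408-29545279 on the forward strand of GRCm38. It had 39.6, 23.4 and 27.8 CPM in the control libraries and 34.9, 29.5 and 22.7 CPM in the delipidated libraries. These ranges lay almost on top of each other, and the log2 fold change was -0.06 (standard error 0.36). Its sign was positive without control replicate 1 (0.19) and without delipidated replicate 3 (0.09). Mtif3, which keeps the subunits apart before initiation, lies at chr5:146951573-146963800 on the reverse strand and had 26.1, 30.3 and 37.7 CPM in control and 30.9, 30.5 and 51.0 CPM in delipidated embryos. Only delipidated replicate 3 exceeded every control library, and without it the log2 fold change of 0.26 (standard error 0.35) became -0.03. Between 124 and 338 of the Mtif3 counts of a library came from 3 parts that overlap Gtf3a on the opposite strand. Without parts of this kind the log2 fold change of Mtif3 was 0.14.

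Mtfmt, the enzyme that formylates the methionyl-tRNA used for initiation, lies at chr9:65435782-65453054 on the forward strand. It had 45, 84 and 0 summed counts in the control and 26, 205 and 72 in the delipidated libraries, and it was the only factor with a library at 0. The count of 0 in control replicate 3 allows up to 0.228 CPM, and the delipidated libraries spanned 1.28 to 12.6 CPM. Delipidated replicate 1 lay below control replicates 1 and 2, so no direction was shared by the delipidated libraries. Its log2 fold change was 1.09 (standard error 1.26), and with single libraries left out it ranged from 0.10 without delipidated replicate 2 to 1.73 without control replicate 2.

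Elongation was represented by Tufm, Tsfm and Gfm1. Tufm is the mitochondrial elongation factor Tu, which carries aminoacyl-tRNA to the ribosome as a complex with GTP, and it lies at chr7:126487361-126490731 on the forward strand. Summed over its parts, control libraries had 17, 254 and 54 counts and delipidated libraries 400, 270 and 131, which is 1.43, 15.4 and 4.10 CPM against 19.8, 16.6 and 9.25 CPM. Delipidated replicates 1 and 2 were above every control library, whereas delipidated replicate 3 was below control replicate 2. The counts covered 3, 18 and 8 of the 22 parts in control and 11, 14 and 9 parts in delipidated embryos, so in control replicate 1 the gene rested on very few fragments. The log2 fold change was 1.12 (standard error 0.75, unadjusted p = 0.162). This value depended on control replicate 2, without which it was 2.45 (standard error 0.73, unadjusted p = 0.00798). The adjusted p of Tufm was 1.00 in that fit and lay between 0.718 and 1.00 over all alternatives. Without control replicate 1 the log2 fold change was 0.64.

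Gfm1, the translocase that moves the ribosome along the message, lies at chr3:67430096-67476529 on the forward strand. It had 53.5, 34.8 and 56.5 CPM in the control and 62.5, 48.9 and 39.0 CPM in the delipidated libraries. The ranges overlapped widely, with 0.06 as the log2 fold change (standard error 0.32). Without control replicate 2 or without delipidated replicate 1 it was -0.13.

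Tsfm is the mitochondrial elongation factor Ts, which exchanges the GDP on Tufm for GTP and so returns Tufm to its active form. The gene, listed as ENSMUSG00000040521, lies at chr10:127011572-127030840 on the reverse strand and is divided into 18 exonic parts. Summed over them, Tsfm had 30, 55 and 50 counts in control and 740, 192 and 189 in delipidated libraries. These correspond to 2.53, 3.33 and 3.80 CPM in control and to 36.5, 11.8 and 13.3 CPM in delipidated embryos. Every delipidated library lay above every control library, and delipidated replicate 1 stood far above the other two. The group means were 3.22 ± 0.641 CPM (SD, n = 3) and 20.6 ± 13.9 CPM (SD, n = 3), and the log2 fold change was 2.67 (standard error 0.59). Without delipidated replicate 1, which also had the largest total count and the fewest genes detected, the log2 fold change was 1.96, and with any other library left out it was between 2.54 and 2.95. More RNA per cell and more cells with the RNA cannot be told apart in pooled embryos. The largest count of a single Tsfm part was 11, 13 and 22 in control and 169, 34 and 44 in delipidated libraries, which sets the lower limit of the reads behind the sums. With the part of most counts in place of the sum, the log2 fold change was 2.10.

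The counts of Tsfm were not spread evenly along its transcripts. The annotation holds 7 transcripts of the gene, of which 3 are coding, and the coding transcript Tsfm-201 has 6 exons and a length of 1206 bases. Counts were found on 10 of the 18 parts in at least 1 control library and on 14 parts in at least 1 delipidated library. The number of parts with counts was 6, 8 and 4 in control and 11, 11 and 9 in delipidated embryos. Of the 18 parts, 3 had counts in all 6 libraries, and these were exons 2, 3 and 4 of Tsfm-201. A further 2 parts, both at the 5′ end of exon 1, had counts in every delipidated and in 0 control libraries.

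Exon 2, at chr10:127030463-127030636, had 3, 12 and 16 counts in control and 134, 34 and 44 in delipidated libraries. Exon 3, at chr10:127029554-127029682, had 5, 13 and 22 counts in control and 169, 33 and 37 in delipidated libraries. Both exons belong to all 3 coding transcripts, and on both the delipidated libraries were higher than the control libraries also after scaling, the closest pair on exon 3 being 1.67 CPM in control replicate 3 and 2.03 CPM in delipidated replicate 2. Exon 4, at chr10:127028365-127028487, had 3, 1 and 8 counts in control and 126, 18 and 9 in delipidated libraries. On this exon control replicate 3 and delipidated replicate 3 were nearly equal, at 0.608 and 0.635 CPM. Together, exons 2 to 4 held 36.7%, 47.3% and 92.0% of the summed counts of the gene in control and 58.0%, 44.3% and 47.6% in delipidated embryos.

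Exon 1, at chr10:127030744-127030840, is cut into 4 parts of 4 to 40 bases, so that the same read can be counted in all of them. The largest part of it had 0, 11 and 0 counts in control and 51, 15 and 21 in delipidated embryos. Exon 5, at chr10:127024936-127025023, was nearly empty, with 0, 3 and 0 counts in control and 0, 0 and 2 in delipidated libraries. It lies between exons that did have counts in delipidated replicate 1, where exon 4 had 126 counts and the largest part of exon 6 had 28. Exon 6, at chr10:127022332-127022926, holds the end of the coding sequence, and the largest count of its 4 parts was 11, 2 and 0 in control and 28, 23 and 0 in delipidated embryos. On this exon the groups overlapped, and control replicate 3 and delipidated replicate 3 had no counts at all. The control counts on it lay on its first 3 parts, and its last part, the 3′ end of Tsfm-201, had 28 and 23 counts in delipidated replicates 1 and 2 and 0 in the other libraries.

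The last part of the gene, at chr10:127011572-127011863, is the final exon of transcript Tsfm-207 and had 74 counts in delipidated replicate 1 and 0 in the other 5 libraries. It overlaps an exon of Avil on the opposite strand, at chr10:127011699-127011878, which also had 74 counts in delipidated replicate 1 and 0 elsewhere. With the same number on both strands, these counts cannot be given to either gene. Without parts that overlap the opposite strand, an alternative chosen after the data were seen, the log2 fold change of Tsfm was 2.59. The parts found only in transcripts with retained introns were empty except for 13 counts next to exon 1 in delipidated replicate 3. A total of 3 parts had 0 counts in all libraries, the longest of them the 701 bases at the 3′ end of transcript Tsfm-202.

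**Figure D2:**
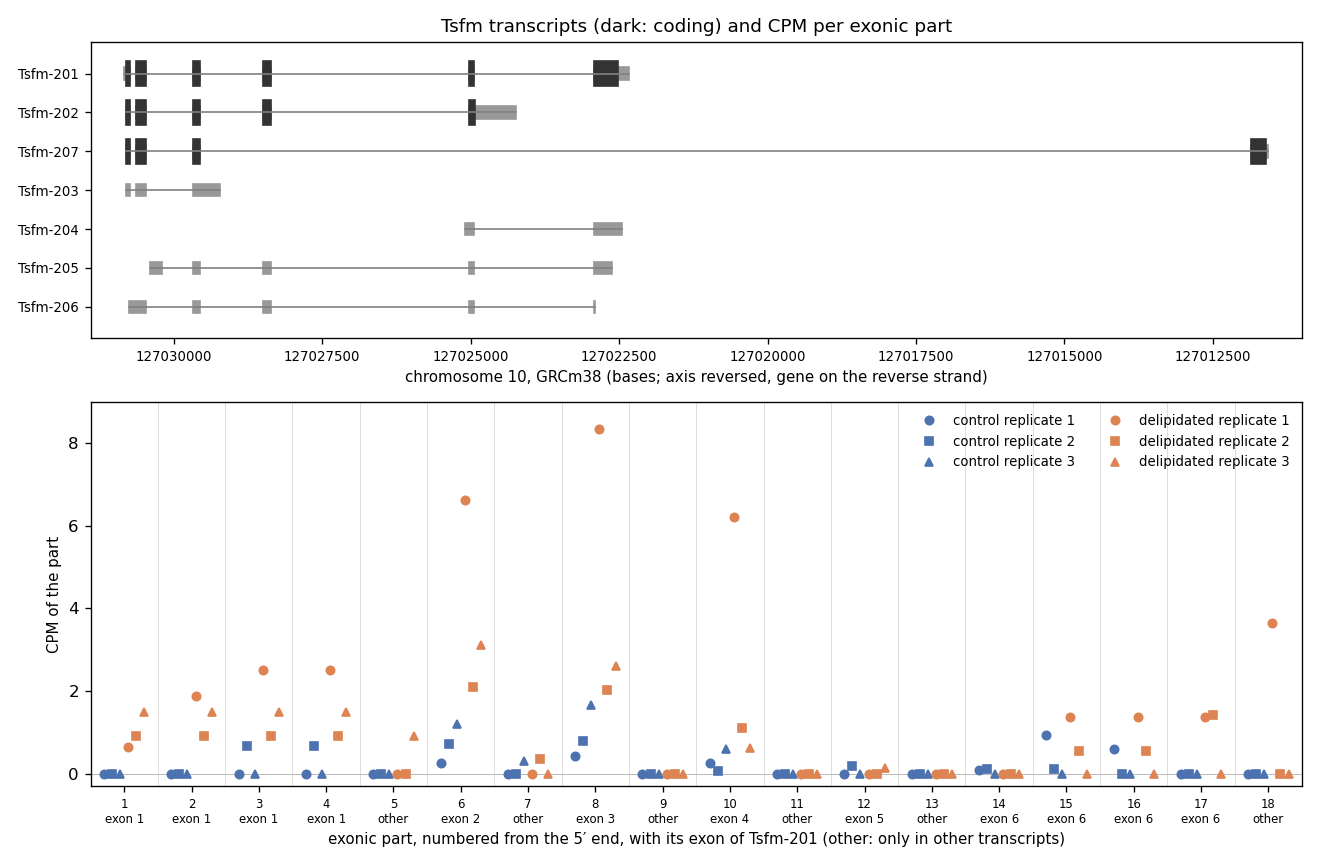
Upper panel: the 7 annotated transcripts of Tsfm on chromosome 10 of GRCm38 in bases, drawn from the 5′ end at the left, with coding sequence as tall dark boxes. Lower panel: the level of each of the 18 exonic parts in CPM (vertical axis, linear) in every library, where the delipidated libraries lie above the control libraries on parts 1 to 4, 6, 8 and 10 (exons 1 to 4), exon 5 is close to 0 and delipidated replicate 1 alone has counts on part 18.

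The sequences of exons 2 to 5 are shown because exons 2, 3 and 4 were the parts counted in every library and exon 5 was the internal coding exon almost without counts. They were taken from the GENCODE M21 transcript Tsfm-201 (GRCm38), are written 5′ to 3′ along the reverse strand of chromosome 10 and are wholly coding in that transcript. Exons 2, 3 and 4 hold 58, 43 and 41 whole codons. The capitals mark exon 3, the part with the most counts over the 6 libraries. The GC content was 61.5% in exon 2, 53.5% in exon 3, 46.3% in exon 4 and 55.7% in exon 5.
Tsfm exon 2: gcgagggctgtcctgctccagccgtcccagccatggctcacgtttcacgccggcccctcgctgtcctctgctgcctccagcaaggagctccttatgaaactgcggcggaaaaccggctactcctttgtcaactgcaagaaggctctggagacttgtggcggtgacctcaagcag
Tsfm exon 3: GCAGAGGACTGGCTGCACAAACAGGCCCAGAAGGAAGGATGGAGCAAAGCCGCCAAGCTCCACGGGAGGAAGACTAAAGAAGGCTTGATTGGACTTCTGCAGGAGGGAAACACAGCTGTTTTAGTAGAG
Tsfm exon 4: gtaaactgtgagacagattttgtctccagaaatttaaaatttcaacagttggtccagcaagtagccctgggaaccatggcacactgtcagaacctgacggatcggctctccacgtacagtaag
Tsfm exon 5: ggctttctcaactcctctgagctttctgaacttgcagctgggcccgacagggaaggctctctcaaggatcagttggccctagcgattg

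Termination was represented by Mtrf1l and Mtrf1. Mtrf1l, the release factor that reads the common stop codons of mitochondrial messages, lies at chr10:5811887-5823910 on the reverse strand and had 3.12, 10.9 and 8.74 CPM in the control and 3.85, 4.48 and 6.14 CPM in the delipidated libraries. All delipidated libraries lay below control replicates 2 and 3 and above control replicate 1. The log2 fold change was -0.66 (standard error 0.66) and was -0.30 without control replicate 2. The part with the most counts, at chr10:5814041-5814177, had 8, 57 and 39 counts in control and 0, 0 and 15 in delipidated embryos, and with that part alone the log2 fold change was -2.79. Mtrf1, a related release factor, lies at chr14:79397772-79423650 on the forward strand and had 31, 42 and 36 counts in control and 64, 22 and 66 in delipidated libraries. The 64 counts of delipidated replicate 1 all lay on 1 of the 11 parts, at chr14:79401422-79401847. In CPM the 3 control libraries were almost equal, between 2.54 and 2.74, while the delipidated libraries spread from 1.35 to 4.66 on both sides of them. Its log2 fold change was 0.22 (standard error 0.89) and became -0.22 without delipidated replicate 3.

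Recycling was represented by Mrrf, which splits the ribosome after release, and by Gfm2, the GTPase that works with it. Mrrf lies at chr2:36136389-36190647 on the forward strand and had 21.1, 13.0 and 22.3 CPM in control and 19.3, 25.2 and 22.7 CPM in delipidated embryos. The log2 fold change was 0.25 (standard error 0.39), and the groups overlapped. Between 59 and 187 of its counts per library came from 4 parts that overlap Rbm18 or Gm13428 on the opposite strand. Without parts of this kind the log2 fold change was 0.79, whereas it was -0.54 with the part of most counts, which is one of them. Gfm2 lies at chr13:97137937-97181195 on the forward strand and was the factor with the most counts, between 892 and 2339 in a library. It had 75.3, 88.2 and 85.3 CPM in the control and 115, 76.3 and 81.9 CPM in the delipidated libraries. Delipidated replicate 1 was above every control library and the other two were within the control range. The log2 fold change was 0.14 (standard error 0.25), and -0.07 without delipidated replicate 1.

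Levels were compared between factors as CPM per kb of summed part length. In control embryos, over all parts, Gfm1 was the highest with 10.9 ± 2.65 CPM per kb (SD, n = 3), followed by Mtif2 with 7.82 ± 2.16 and Gfm2 with 7.76 ± 0.634. Mtif3 had 6.12 ± 1.15 CPM per kb. The ranges of these 4 factors over the control libraries overlapped from each to the next, and their order was different with the longest part of each gene alone. The lowest value of Mtif3, 5.08 CPM per kb, lay above the highest of Mrrf, 4.48 CPM per kb. Mrrf, Tufm and Mtrf1l followed with means of 3.78, 3.28 and 2.33 CPM per kb, again with overlapping ranges, and Tufm varied most, from 0.675 to 7.23 CPM per kb. Mtrf1, Tsfm and Mtfmt were the lowest, with 1.41 ± 0.0532, 1.11 ± 0.221 and 0.810 ± 0.723 CPM per kb (SD, n = 3 each). The lowest control value of Mtrf1, 1.36 CPM per kb, was just above the highest of Tsfm, 1.31 CPM per kb. Over all parts, Tsfm was thus in place 9 of the 10 factors in control embryos by mean level, or in place 10 without control replicate 3. Of the 2904 bases of its parts, 1698 lie outside Tsfm-201 and had 0, 0 and 4 counts in the control libraries. This nearly uncounted length lowers the level per kb of Tsfm, so its place depends on which parts are taken. The range of Tsfm overlapped those of Mtfmt, Tufm and Mtrf1l, whose lowest control value was 0.957 CPM per kb. In control embryos 73.1% of all genes tested had a higher level per kb of all parts than Tsfm.

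In delipidated embryos Tsfm had 7.08 ± 4.77 CPM per kb (SD, n = 3) and its partner Tufm 7.15 ± 2.54 CPM per kb (SD, n = 3), and the mean of Tsfm rested on replicate 1. Within libraries, Tsfm and Tufm were at 0.872 and 0.675 CPM per kb in control replicate 1, 1.15 and 7.23 in control replicate 2 and 1.31 and 1.93 in control replicate 3. In the delipidated libraries the same levels were 12.6 and 9.29 CPM per kb in replicate 1, 4.06 and 7.81 in replicate 2 and 4.59 and 4.35 in replicate 3. Which of the pair was higher per kb of all parts therefore differed between libraries in both groups. This comparison too depends on the nearly uncounted length of Tsfm. Of the summed CPM of all 10 factors, not divided by length, Tsfm made up 1.11% to 1.53% in control and 4.59% to 11.2% in delipidated embryos. This difference follows from its selection.

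The genes whose pattern was most like that of Tsfm were taken from 8126 genes with a mean of at least 10 CPM, by Pearson's r of log2 CPM over the 6 libraries. The first 5 were Nup205 (r = 0.982), Rbm33 (r = 0.980), Ranbp17 (r = 0.979), Xpo5 (r = 0.977) and 6720489N17Rik (r = 0.970). The libraries were shared by all genes, so these values describe them and were not tested. Nup205, a nuclear pore protein, had 97.5, 108 and 101 CPM in the control and 147, 128 and 128 CPM in the delipidated libraries. Xpo5, which exports small structured RNAs from the nucleus, had 12.3, 18.1 and 17.4 CPM in the control and 48.8, 25.6 and 33.4 CPM in the delipidated libraries. In each of the 5 genes the delipidated libraries lay above the control libraries, with log2 fold changes between 0.32 and 1.17, all smaller than that of Tsfm. This separation follows from picking them by likeness to Tsfm, and it was found for 3.81% of all genes. Among the other 9 factors r ranged from -0.344 for Mtrf1l to 0.689 for Tufm.

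The genes next to Tsfm on chromosome 10 had few counts or another pattern. Avil, a villin-like actin-binding gene that overlaps Tsfm on the forward strand at chr10:127000709-127020994, had 8, 0 and 0 counts in control and 76, 7 and 0 in delipidated libraries, and 74 of the 76 were the counts on the shared stretch. Eef1akmt3, a lysine methyltransferase gene on the same strand as Tsfm, lies 164 bases beyond its 5′ end at chr10:127031004-127041513 and had 0, 0 and 6 counts in control and 0 in all delipidated libraries. Both were below the filter on low counts. Ctdsp2, a phosphatase gene whose end lies 11597 bases from the 3′ end of Tsfm, had 6.50, 8.53 and 11.2 CPM in control and 0.691, 13.0 and 6.64 CPM in delipidated embryos. In delipidated replicate 1, where Tsfm was highest, Ctdsp2 was lowest, and its log2 fold change was -0.37 (standard error 0.83).

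The rest of the pathway was described with 7 lists of 100 genes, of which 96 were tested. Among them is BC004004, entered for Mtres1 by an alias that was not checked. An unadjusted p under 0.05 was found for 2 of these with a higher level in delipidated embryos, Hsd17b10 and Tefm, and for 0 with a lower level, against 1.15% and 1.74% of all genes. With edgeR 0 genes of the lists were called at the adjusted threshold, and 0 with DESeq2 or limma-voom. The median log2 fold change over the 96 genes was 0.14, with 59 positive and 37 negative values. The groups did not overlap for 5 genes in the upward and 1 gene in the downward direction, against 3.81% and 5.05% of all genes.

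Tefm is the elongation factor of mitochondrial transcription. It had 43, 115 and 49 counts in control and 384, 126 and 175 in delipidated libraries, or 4.77 ± 1.89 CPM (SD, n = 3) and 13.0 ± 5.64 CPM (SD, n = 3). Its counts covered 5 of its 9 parts in each control library and 8, 6 and 8 parts in the delipidated libraries. The groups did not overlap, although control replicate 2 and delipidated replicate 2 were close. The log2 fold change was 1.45 (standard error 0.58, unadjusted p = 0.0295), and its adjusted p from edgeR was 1.00 and at least 0.456 over all alternatives. Without delipidated replicate 1 it was 1.07. Of the 6 tested genes of mitochondrial transcription, 5 had a positive log2 fold change, and the median was 0.23. Tfb2m, a factor that opens the promoter and had the highest control level per kb of this list, was at 148 ± 14.5 and 164 ± 55.9 CPM (SD, n = 3 each).

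Hsd17b10 encodes a dehydrogenase that is also a subunit of the enzyme that cuts the 5′ ends of mitochondrial tRNAs. It had 2, 0 and 6 counts in control and 63, 60 and 31 in delipidated libraries. The counts covered 2, 0 and 2 of its 11 parts in control and 3, 6 and 4 parts in delipidated embryos, so the control level rested on a handful of reads. The log2 fold change was 3.81 (standard error 1.49, unadjusted p = 0.0258, adjusted p = 1.00 from edgeR and at least 0.258 over the 16 alternatives in which it was tested). It was 5.11 without control replicate 3. Among the 19 tested genes of mitochondrial tRNA maturation and modification, 13 were positive and 6 negative, with a median of 0.12. Nsun2, a tRNA methyltransferase with the highest control level per kb of this list, was at 212 ± 76.3 and 215 ± 65.4 CPM (SD, n = 3 each).

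The aminoacyl-tRNA synthetases, which charge the tRNAs that Tufm carries, had 9 positive and 13 negative log2 fold changes among 22 tested genes, with a median of -0.04. Hars2 had 128, 499 and 79 counts in control and 164, 137 and 37 in delipidated libraries, with a log2 fold change of -1.30 (standard error 0.69). Its groups overlapped, and 4 to 51 of its counts per library were on parts that overlap the opposite strand. Lars2 was the highest of this list per kb, at 78.2 CPM per kb in control embryos, and its log2 fold change was -0.03 (standard error 0.17).

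Ribosome rescue and back-translocation had 4 genes, 3 of them positive, with a median of 0.51. This median includes BC004004, with a log2 fold change of 0.69 (standard error 1.33). It was entered for Mtres1 by an alias that was not checked, so it may be another gene outside this process. Mrpl58 varied from 51 to 126 counts in control and from 15 to 357 counts in delipidated embryos. Guf1, the back-translocating GTPase, had a log2 fold change of -0.47 (standard error 0.56), and 2810006K23Rik, the gene of a rescue factor, 0.36 (standard error 0.71). In both genes the standard error was larger than the difference, and between 46 and 132 of the Guf1 counts per library were on parts that overlap the opposite strand. The 9 genes of nascent chain processing and membrane insertion had a median of 0.36, with 7 positive values. Phb, a prohibitin of the inner membrane, was at 13.3 ± 4.96 and 22.2 ± 3.95 CPM (SD, n = 3 each), and 0.74 was its log2 fold change (standard error 0.44). Phb2, its partner, had 0.55 (standard error 0.38), and the protease Lonp1, the highest of the list per kb, 0.33 (standard error 0.24).

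Translational activators and genes of mRNA stability had 12 positive and 3 negative values among 15 tested genes, with a median of 0.23. The genes with the smallest p values were Tbrg4 and Fastkd5, with log2 fold changes of 0.35 and 0.72 and standard errors of 0.30 and 0.66. The helicase gene Supv3l1, the highest of the list per kb, was at 112 ± 31.8 and 113 ± 28.8 CPM (SD, n = 3 each). For mitochondrial ribosome assembly, 10 genes were positive and 11 negative, with a median of -0.09. Trub2, a pseudouridine synthase, had 67.7, 96.9 and 71.1 CPM in control and 101, 104 and 114 CPM in delipidated embryos, and its log2 fold change was 0.44 (standard error 0.24). The groups did not overlap for Trub2 in the upward and for 1 other gene of this list, Mpv17l2, in the downward direction (log2 fold change -0.87, standard error 0.73). Such a separation was found for 3.81% of all genes in the upward and 5.05% in the downward direction, and nothing is read from it here. Between 280 and 763 of the Trub2 counts per library were on parts that overlap the opposite strand. Mterf3, with 15 to 156 counts per library on such parts, had a log2 fold change of 0.86 (standard error 0.57), and the GTPase Noa1, the highest of the list per kb, -0.23 (standard error 0.27).

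The cytosolic elongation and release factors, taken for comparison, had 6 positive and 8 negative values among 14 genes, with a median of -0.04. Eef1g and Gtpbp1 had the smallest p values of this list, with log2 fold changes of -0.80 and 0.73 and standard errors of 0.47 and 0.54, and Eif5a was the highest per kb and was at 531 ± 68.9 and 558 ± 124 CPM (SD, n = 3 each). The mitochondrial ribosomal proteins had a median of 0.00 over 73 tested genes, and 1 of them, Mrpl41, had an unadjusted p under 0.05 and a higher level, against 1.15% of all genes, with 135, 162 and 53 counts in control and 380, 476 and 239 in delipidated embryos, while Mrpl18 had the highest control level per kb. The messages that the factors translate are those of the protein genes of the mitochondrial genome. They added up to 14713 ± 3936 CPM (SD, n = 3) in control and 17624 ± 1977 CPM (SD, n = 3) in delipidated embryos. The groups overlapped in this sum, and the highest sum of all libraries was 19253 CPM in control replicate 3. Of the 13 genes 11 were tested, and 10 had a positive and 1 a negative log2 fold change. Their median was 0.21, against 0.00 over all genes tested. The log2 fold changes were 0.36 for mt-Cytb and 0.29 for mt-Nd5. The counts of mt-Nd5 were all on a part that overlaps the opposite strand. Of these 13 genes, 6 had at most 69 counts in any library, so the sum rests on the other 7.

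The labelled stage was checked with marker genes, where the most abundant gene of a list is the one with the highest mean over the 6 libraries and not the highest in each. All 11 markers of embryonic genome activation at the 2-cell stage had counts in every library, and their levels added up to 360, 166 and 338 CPM in control and 251, 313 and 371 CPM in delipidated embryos, with Zfp352 the most abundant. All 14 oocyte or maternal markers were also counted in every library, with sums of 1191, 845 and 1177 CPM in control and 934, 1155 and 1381 CPM in delipidated embryos and Bmp15 the most abundant. The groups overlapped for both lists. Markers of cells that could adhere to embryos were low. The 11 cumulus and granulosa markers added up to between 11.3 and 32.8 CPM in a library, with Amhr2 the most abundant, and Foxl2 and Ptx3 were at 0 in all libraries. The 8 leukocyte markers added up to 15.2, 8.35 and 10.9 CPM in control and 2.77, 7.99 and 12.6 CPM in delipidated embryos, with Coro1a the most abundant. The 7 oviduct markers added up to between 11.5 and 20.8 CPM, with Dnah5 the most abundant and Wfdc2 at 0 in all libraries.

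The 8 stromal markers added up to 7, 10.1 and 7.60 CPM in control and to 1.93, 5.96 and 4.31 CPM in delipidated embryos, so their sum was lower in all delipidated libraries than in the control libraries. Pdgfra was the most abundant of them. The members differed in direction: Col1a1 had 11, 26 and 42 counts in the control and 0 in all delipidated libraries, whereas Dcn was counted in delipidated replicate 3 alone, with 27 counts, and Thy1 had 2, 2 and 1 counts in control and 0, 40 and 3 in delipidated embryos. In all, 2, 3 and 2 of the 8 genes were at 0 in the control and 7, 6 and 4 in the delipidated libraries. Whether such cells had a part in the difference of Tsfm was not tested.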

How the data were processed

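The 6 libraries were made with a strand-specific kit for total RNA and depletion of ribosomal RNA. Per the submitters' processing notes, reads were trimmed with Trimmomatic 0.36, aligned with STAR 2.5.2b to mm10 and counted with featureCounts. The authors deposited raw counts of unique reads per exonic part, and the sources used here do not describe the division into parts. The 425461 parts were summed per Ensembl gene. Of 33309 parts listed under joined identifiers of overlapping genes, 27968 overlapped the exons of a single one of those genes in GENCODE M21 (GRCm38) and were given to it. The rest was not used, at most 2.57% of the counts of a library. Symbols came from the same annotation for 48762 of 48967 genes.

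The comparison used edgeR 4.0.16 (R 4.3.3) with filterByExpr (minimum count 10, minimum total 15), TMM factors between 0.967 and 1.03 and the quasi-likelihood test, without covariates, over all 16020 genes, with Benjamini-Hochberg adjustment. The common biological coefficient of variation was 0.663. The standard error is the log2 fold change divided by the root of the F statistic. The fits were tested on simulated counts, drawn for each gene with edgeR's own estimate of its spread and without reads counted more than once. There edgeR missed many of the changed genes and DESeq2 also called unchanged ones. Since the real sums differ in this way, the simulation does not tell which calls in these data are false. Summed parts count a read more than once, which makes counts look more precise than they are.

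The 10 factors and the gene lists were chosen with earlier results of these data known. Genes named in the text are the factors, and from each list the members with an unadjusted p under 0.05 or otherwise at most 2 of those with the smallest p, the member with the highest control CPM per kb, the 2 ribosome assembly genes whose groups did not overlap, the neighbours of Tsfm and the 5 genes most like it. BC004004 is named because of its alias. Alternatives were DESeq2 1.42.0 with and without the filter, limma-voom (limma 3.58.1), DESeq2 size factors, library totals, no filter, a filter at a mean count of 50, no mitochondrial or rRNA genes, parts of single identifiers, the part with most counts, no parts overlapping the opposite strand, the replicate number as a block and each library left out. Tables were made with Python 3.11.15.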

Additional observations from a re-analysis of the deposited data

How the results depend on the processing

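All 18 alternatives gave Tsfm a positive log2 fold change, but this shared sign is no evidence for the rise, since Tsfm was selected for it in these libraries. The log2 fold change of Tsfm was between 1.96 and 2.95 with each library left out, and the low end was without delipidated replicate 1. In the full data it was 2.67 (standard error 0.59). The pooled SD of log2 CPM within groups was 0.67, which describes single libraries and not the fold change. In delipidated against control embryos, 3 genes were called higher and 9 lower by DESeq2 on the same genes, 9 and 40 by DESeq2 with no filter and 5 and 25 by edgeR with no filter, and 0 in the other alternatives. None of the 9 other factors was called in any of them, and with each library left out 0 or 1 had an unadjusted p under 0.05. Their median log2 fold change, 0.22 in the main fit, lay between 0.12 with the replicate number as a block and 0.26 with the part of most counts. With the part of most counts the sign turned for Gfm1 (-0.03), Mtif2 (0.25) and Mrrf (-0.54). With each library left out the log2 fold change ranged from -0.13 to 0.20 for Gfm1, -0.07 to 0.25 for Gfm2, -0.22 to 0.19 for Mtif2, -0.03 to 0.41 for Mtif3 and -0.22 to 0.57 for Mtrf1. Mtrf1 and Hsd17b10 were below the filter with a mean count of at least 50 and with the part of most counts. Among the pathway genes, the number with an unadjusted p under 0.05 and a higher level was 2 in the main fit. It was 3 by DESeq2 on the same genes and by limma-voom, and 4 by DESeq2 with no filter. With a mean count of at least 50 it was 1, with the part of most counts 0 and with each library left out between 1 and 3. The genes were not always the same, and without control replicate 1 the only one was Trmt5. The number with a lower level was 0 in the main fit, 1 by edgeR with no filter and 0 or 1 with each library left out. The cause of these changes was not tested.

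With the replicate number as a block (replicate block) 0 genes were called higher and 0 lower, the log2 fold change of Tsfm was 2.47 and 0 pathway genes had an unadjusted p under 0.05 with a higher level. The numbers did not pair the libraries: the deviations of same-numbered libraries from their group means correlated at -0.0836, 0.0698 and 0.0428. By level per length Tsfm was in place 10 without control replicate 3. With the longest part of each gene in place of all parts, Tsfm and Mtif2 both had 0 counts in the control libraries and shared the last place, so this alternative does not order them, while Gfm2 was first with 7.82 CPM per kb and Gfm1 went from place 1 to place 4 with 0.797 CPM per kb. Depth limits Mtfmt, Mtrf1, Tsfm and Hsd17b10, which had fewer than 100 summed counts in each control library.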
